A study of Mus musculus with 6 samples.

Results

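The late-numbered mouse miRNAs are those whose miRBase name carries a number of 1000 or more, with any letter or arm ending. The set described here took 36 of the 1414 rows in the deposited table. A row was a member if its name began with mmu-miR- and such a number, apart from a pair of excluded numbers, and if its counts summed to at least 60 over the 6 libraries. Members were thus chosen by their summed counts, so their abundance is given as a description. The rule does not use the contrast of the groups, but it was set with earlier results of these data known. All 36 mature sequences were different from each other. The table held 445 late-numbered rows in all, and the other 409 stayed under that sum.

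Small RNA came from the pancreas of wild-type C57BL/6 mice weighing 22 to 25 g. The labels give neither age nor sex. The 3 control libraries (replicates 43, 44 and 45) came from mice given saline. The 3 model libraries (replicates 56, 57 and 59) came from mice given caerulein, a peptide that overstimulates the enzyme-secreting acinar cells, with lipopolysaccharide (LPS) added to the last injection. The labels state caerulein at 50 mg/kg, and whether that unit is right could not be checked. Each mouse had 7 intraperitoneal injections at intervals of 1 hour, and pancreas was collected 24 hours after modelling began. The treatment labels name saline as a second agent in both groups. Caerulein and LPS were never given separately, and what each contributes cannot be told apart. Nothing in the labels ties a library to a mouse of its own. The p-values therefore cover the spread among the 6 libraries, part of which may be technical.

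miRBase numbers follow the order of discovery, and high numbers mostly belong to miRNAs found by deep sequencing. A typical miRNA is cut from a hairpin by Drosha and Dicer, and bases 2 to 8 of the mature strand, the seed, pair with target mRNAs. Some hairpins take other routes. Mirtrons are short introns that fold into a hairpin once spliced out, and certain small nucleolar RNAs (snoRNAs) and small Cajal body RNAs (scaRNAs), which guide the modification of other RNAs, are also cut into miRNA-sized pieces.

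The most abundant members and those whose groups did not overlap are shown first, since the results below turn on them. Sequences are as deposited, 5′ to 3′, with the seed in capitals.
miR-1839-5p: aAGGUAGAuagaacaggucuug
miR-6969-3p: uGUUGUUCccaucucugcag
miR-6969-5p: cAGCAGAGuagggagcaaaaga
miR-3068-5p: uUGGAGUUcaugcaaguucuaacc
miR-6538: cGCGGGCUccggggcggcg
miR-3074-2-3p: uGUUUCAGcucaguaggcac
miR-1198-5p: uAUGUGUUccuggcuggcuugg
miR-1843a-5p: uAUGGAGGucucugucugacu
miR-1843b-5p: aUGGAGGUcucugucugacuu
miR-1843a-3p: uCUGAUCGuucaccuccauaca
miR-1983: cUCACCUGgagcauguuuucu
miR-1249-3p: aCGCCCUUcccccccuucuuca
miR-1247-5p: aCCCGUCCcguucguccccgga
miR-6933-5p: uGGCGGCAgucaggauaccugu
Of the 36 deposited sequences, 33 matched a RefSeq mature entry of the same name (GRCm38.p6) base for base. No member shared its seed with another known miRNA of at least 60 counts (0 of 36), whereas 131 of the other 403 known sequences past the same sum did (32.5%). With rarer known rows included, 1 member did: miR-1983 and miR-412-3p, which had 10 counts, have the same seed. The 5p strands of miR-1843a and miR-1843b shared a run of 20 bases. That run starts at base 2 of the first and at base 1 of the second, so their seeds are offset by 1 base, and the split of reads between them is uncertain.

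Members differed from the other known miRNAs in length. Sequences of 21 to 23 nt made up 66.7% of members (24 of 36) and 93.1% of the others (375 of 403). At 20 nt or less there were 7 members (19.4%, against 3.97% of the others), among them miR-6969-3p and miR-6538, and at 24 nt or more there were 5 (13.9%, against 2.98%), among them miR-3068-5p. The median G and C content was 50.0% in members and 45.5% in the others, and miR-6538 had the highest of any member at 94.7%. The first base was U in 18 of 36 members (50.0%) and in 41.9% of the others.

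Positions in GENCODE M21, which annotates GRCm38, placed many members inside other genes. Strands of the same hairpin were counted separately, here and in the position groups below. Of the 35 members with a RefSeq position, 9 overlapped an annotated snoRNA or scaRNA on the same strand (25.7%), compared with 2 of 357 other placed sequences (0.56%). A further 5 came from a hairpin with an arm directly beside an exon of a protein-coding gene, at the end of its intron (14.3%, against 1.40% of the others). Another 4 lay opposite the hairpin of a different miRNA (11.4%, against 10.6%), 5 within an exon of another gene (14.3%, against 21.3%) and 8 elsewhere in an intron (22.9%, against 39.2%). For the remaining 4, GENCODE M21 listed no other gene on their strand (11.4%, against 26.9%), and miR-7219-3p was not placed. Other gene annotations were not searched for overlaps.

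**Figure D1:**
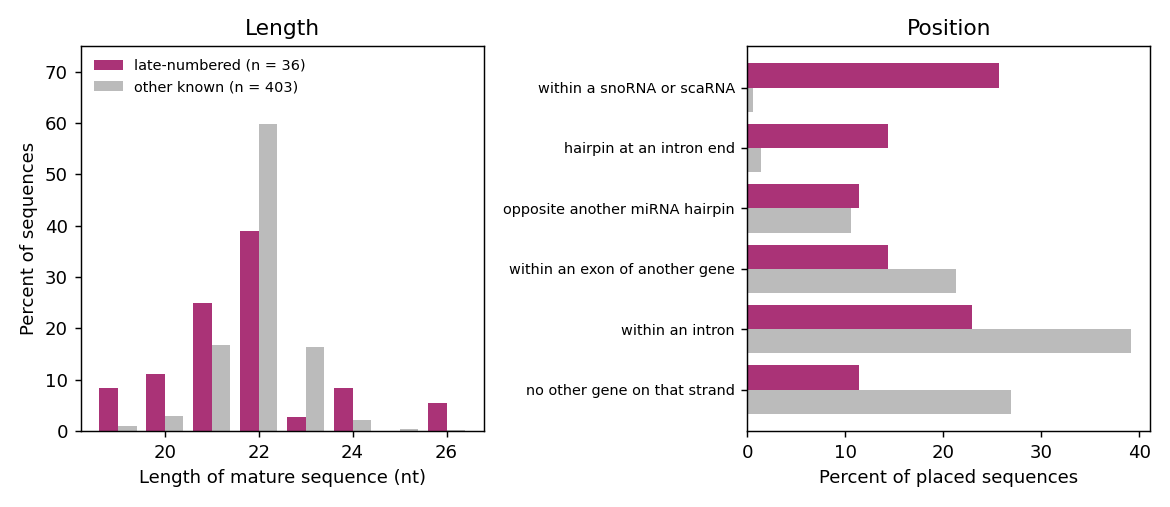
Length of the mature sequence in nt (left, percent of sequences) and position in the annotation (right, percent of placed sequences) for 36 late-numbered miRNAs and 403 other known miRNAs with at least 60 counts. Members within a snoRNA or scaRNA made up 25.7% of those placed, against 0.56% of the others.

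Total counts per library ran from 1943693 to 3006220, and 3 counts, the limit that a count of 0 allows, were worth 0.998 to 1.54 CPM (counts relative to library size; counting error only). Every member had counts in every library. Levels below are in CPM scaled with TMM factors, which set the typical miRNA equal between libraries. Pancreatic acinar markers (miR-216a-5p, miR-216b-5p, miR-217-5p and miR-148a-3p) summed to 55780 to 92620 CPM in control and 47830 to 50990 in model libraries, and control replicate 45 had the highest sum. Among them the groups overlapped for miR-217-5p (log2 fold change -0.50), while the other acinar markers were lower in every model library. Sums of the islet markers (58830 to 80830 in control, 38840 to 52090 in model) and the endothelial markers (40570 to 47690, 32210 to 37870) were likewise lower in every model library. The fall lay in miR-375-3p and miR-126a-3p (log2 fold changes -0.73 and -0.36), while groups overlapped for miR-7a-5p (0.005) and miR-126a-5p (0.12). The 5 leukocyte markers summed to 4590 to 6865 CPM in control and 5332 to 11470 in model libraries, which overlap. Erythroid and smooth muscle sums overlapped too. Among the leukocyte markers, every model library was above all controls for miR-223-3p, miR-142a-3p and miR-155-5p (log2 fold changes 2.75, 1.45 and 2.91). Groups overlapped for miR-142a-5p (0.99) and for the most abundant, miR-150-5p (-0.35). What part any of these had in the results below was not tested. Liver miR-122-5p was at 345 CPM in control replicate 44 and at 40.8 to 126 in the other libraries. Control replicate 44 was the highest library for 13 of the 35 members tested and the lowest for 6, and model replicate 56 was the lowest for 11.

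Late-numbered miRNAs were a small fraction of pancreatic miRNA. Of all counts, members took 0.541%, 0.490% and 0.440% in the controls (43, 44 and 45, the order kept below) and 0.602%, 0.561% and 0.581% in the model libraries (56, 57 and 59). The mean share was 0.490% ± 0.0505 for controls, against 0.581% ± 0.0204 for the model (SD, n = 3), and every model library lay above every control. With TMM scaling that order was lost: the 35 members tested summed to 5481, 5673 and 5117 CPM in controls and 5551, 5174 and 5006 in model libraries, which overlap (log2 ratio -0.05). Most of the difference in share lay in miR-1839-5p: without it the shares were 0.378% ± 0.0486 and 0.385% ± 0.0208. The set was uneven, with 11 members above 1000 counts in sum and 25 at 457 or below. The first of them, miR-1839-5p, had 24441 counts and ranked 82 among all 1414 rows.

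At the lower limit, miR-3105-3p (60 counts) and miR-5099 (61 counts) were just inside and miR-7213-5p (56 counts) and miR-3072-3p (55 counts) just outside. Only 8.09% of late-numbered rows reached 60 counts, against 62.2% of other known rows. The members held 96.2% of all late-numbered counts.

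**Figure D2:**
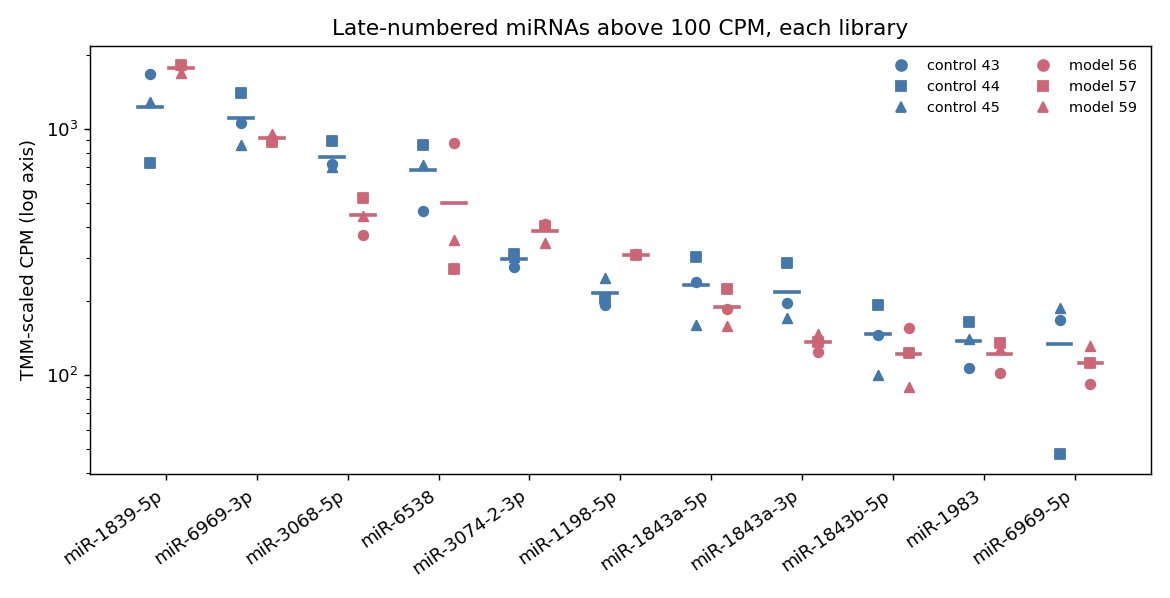
Level of the 11 late-numbered miRNAs above 100 CPM in each library, as TMM-scaled CPM on a log axis, with control libraries in blue, model libraries in red and bars at the group means. miR-1839-5p, miR-3074-2-3p and miR-1198-5p lay higher in all model libraries, and miR-3068-5p and miR-1843a-3p lower.

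The design asks which miRNAs differ between pancreas after caerulein with LPS and saline control. No late-numbered miRNA passed the threshold: 0 of 35 members tested were higher and 0 lower at an edgeR adjusted p under 0.05 over 499 rows, of which 1% were called higher and 0.2% lower. At an unadjusted p under 0.05, 1 member was higher and 4 were lower, where 11.4% and 12.4% of all rows were. DESeq2 called 0 higher and 1 lower, miR-3068-5p (adjusted p = 0.0314), where 22 of all 499 rows were called higher and 22 lower. It gave no adjusted p for 17 of the 35. These could not be called, yet they remain among the 499 rows. The 36th member, miR-3105-3p, did not pass the filter on low counts. With no filter its log2 fold change was -2.27 (adjusted p = 0.0157 in edgeR), from 4, 17 and 24 counts in controls and 4, 3 and 8 in model libraries, which overlap.

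The groups did not overlap for 8 members. Model libraries lay above all controls for 4 (11.4% of members, against 14.4% of all rows) and below all controls for another 4 (11.4%, against 16.6%). Their shares were thus close to the background or under it. The median log2 fold change was -0.15 over the members and 0.01 over all rows, with 13 members positive and 22 negative. Of all 499 rows, 251 were positive and 248 negative. The 27 members with overlapping groups ran from -0.98 (miR-3965) to 0.82 (miR-1964-3p), and 23 of them were within 0.5 of zero. The standard error was 0.26 at the median for the 11 members above 100 CPM and 0.42 for the 23 under 20 CPM, so differences at the lower levels were less precisely measured.

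**Figure D3:**
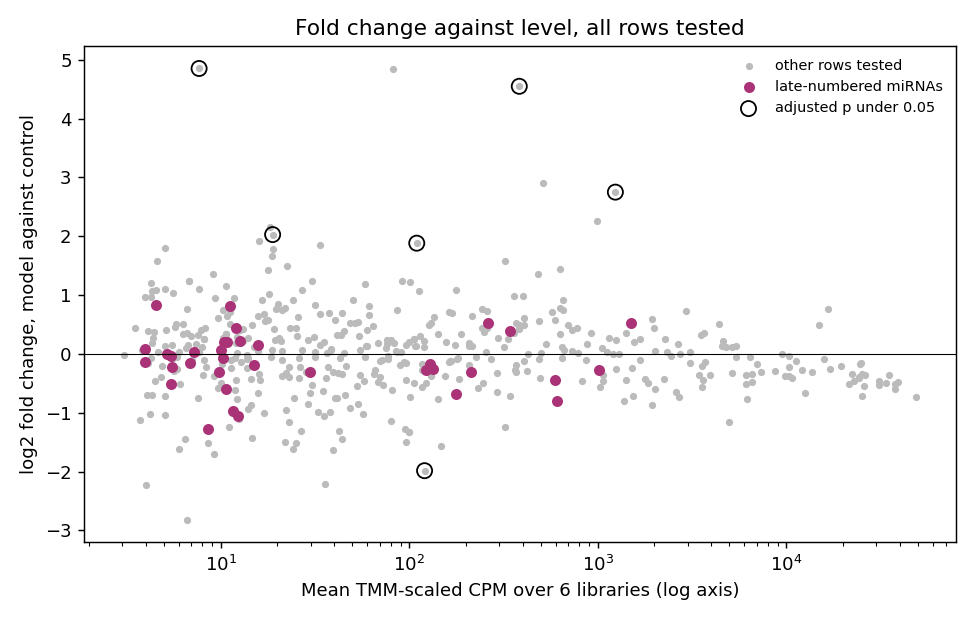
log2 fold change of model against control libraries plotted against mean TMM-scaled CPM (log axis) for all 499 rows tested, with the 35 late-numbered miRNAs in purple and rows past the adjusted p threshold circled. The late-numbered miRNAs lie between -1.28 and 0.83, and none is circled.

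Members that lie within snoRNAs and scaRNAs held 51.0% of all member counts. The most abundant was miR-1839-5p, on chromosome 7 from 81529919 to 81529940 (plus strand), within a scaRNA annotated under the name Mir1839. Its level was 1673, 728 and 1286 CPM in controls and 1808, 1815 and 1692 in model libraries. Model libraries lay close together and above all controls, although control replicate 43 was just under the lowest of them. This gave a log2 fold change of 0.53 (SE 0.31, adjusted p = 0.348 by edgeR). It was 0.25 without control replicate 44, 0.80 without control replicate 43 and 0.53 to 0.58 without any other library. In bulk tissue, a change in the number of cells of a type and a change in RNA per cell cannot be told apart. The opposite strand, miR-1839-3p, had 26 counts in all libraries together.

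The next of this group is miR-3068-5p, in Alkbh1, which encodes a nucleic acid demethylase. It lies on chromosome 12 from 87437724 to 87437747 (minus strand), within a snoRNA annotated under the name Mir3068. It was at 725, 899 and 699 CPM in controls and at 370, 527 and 443 in model libraries. All model libraries lay below all controls. The log2 fold change of -0.79 (SE 0.23) came with an adjusted p = 0.106 in edgeR, with a range of 0.0314 to 0.982 over the alternatives. The higher end came with the authors' library totals, where the log2 fold change was 0.02. Its 3p strand had 43 counts against 9093.

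Both strands of miR-1843a were members. They come from Scarna3b, a scaRNA in an intron of Dcaf5, with the 3p strand on chromosome 12 from 80391615 to 80391636 and the 5p strand from 80391654 to 80391674 (minus strand). The 3p strand was at 196, 286 and 172 CPM in controls and 125, 137 and 147 in model libraries, with no overlap (log2 fold change -0.68, SE 0.26; adjusted p = 0.17 in edgeR). Control replicate 44 was its highest library, and without that library the log2 fold change was -0.44. The 5p strand ran from 160 to 302 CPM in controls and from 158 to 224 in model libraries, which overlap. Its near-copy miR-1843b-5p, within Scarna3a in the ubiquitin ligase gene Cop1 on chromosome 1, ran from 101 to 194 and from 89.7 to 155 CPM.

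Lower levels were seen for the others of the group. miR-3084-5p and miR-3084-3p match both Snora19, in the translation factor gene Eif3a, and a second copy in Cbwd1 on chromosome 19, so their locus is uncertain. They averaged 29.9 and 10.7 CPM, with log2 fold changes of -0.31 and -0.60. miR-3535 lies within the snoRNA Gm24148 in Ncl, the gene of nucleolin, and its RefSeq hairpin carries that snoRNA's name. It spread widely, from 0.741 CPM in model replicate 56 to 16.9 in model replicate 57. miR-1291, within Snora34 in Kansl2, ran from 1.85 to 11.4 CPM and had a log2 fold change of -0.01. Of the 9 members of the group, 8 had negative and 1 had positive log2 fold changes with TMM (median -0.30), but 6 were negative when scaled by total counts and 0 by the authors' library totals. Summed over the group, controls ran from 2471 to 3037 CPM and model libraries from 2582 to 2878, so the sums overlapped.

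The hairpin of miR-6969 lies in Clps, the gene of colipase, the cofactor that acinar cells secrete for pancreatic lipase. Its 3p strand occupies chromosome 17 from 28558441 to 28558460 (minus strand) and ends 0 bases from the 3′ splice site of an intron of 320 bases. The hairpin covers 61 of those bases, with the 5p strand from 28558475 to 28558496. miR-6969-3p was the second member by level, at 1058, 1404 and 860 CPM in controls and 909, 889 and 958 in model libraries. The groups overlapped, and controls spread more than model libraries (log2 fold change -0.27, SE 0.24; adjusted p = 0.569 in edgeR; 0.03 with total counts alone). Without control replicate 44 the log2 fold change was -0.07, and without control replicate 45 it was -0.45. The 5p strand was at 168, 47.7 and 188 CPM in controls and 91.9, 112 and 132 in model libraries. Control replicate 44 thus had the most of the 3p and the least of the 5p strand.

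The other members from intron ends were far scarcer. The hairpin of miR-1981-5p, in Marc2, spans the whole intron: both measure 82 bases, and the 5p strand begins 0 bases from the 5′ splice site. miR-6988-3p, in the ubiquitin ligase gene Syvn1 that serves protein degradation at the endoplasmic reticulum, ends 0 bases from the 3′ splice site of an intron of 82 bases. miR-7043-3p does so in an intron of 1589 bases in Rassf4. These averaged 10.2, 6.84 and 10.4 CPM with log2 fold changes of -0.07, -0.15 and 0.21, and their groups overlapped. With total counts alone, 5 of the 5 members from intron ends were positive, against 1 of 5 with TMM.

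miR-3074-2-3p lies on chromosome 8 from 84208839 to 84208858 (minus strand), opposite the hairpin of Mir24-2. All 20 of its bases pair with the 5p strand of that hairpin, whose sequence is given here for comparison.
miR-24-2-5p: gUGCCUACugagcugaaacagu
It was at 275, 311 and 303 CPM in controls and 412, 403 and 343 in model libraries, all above the controls (log2 fold change 0.38, SE 0.21; adjusted p = 0.318 in edgeR). miR-24-2-5p, read from the other strand, averaged 474 ± 74.4 CPM over controls and 710 ± 93.1 over the model (SD, n = 3), also without overlap (log2 fold change 0.58, SE 0.23; adjusted p = 0.17 in edgeR). In counts the late-numbered strand was thus at 0.57 times the miR-24 one.

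The remaining members of this kind were scarcer than the miRNA strands they are complementary to. miR-3065-3p and miR-3065-5p, opposite Mir338 on chromosome 11, had 172 and 113 counts, where miR-338-5p and miR-338-3p had 912 and 1687. The complementary runs were 19 and 21 bases long. miR-3071-3p lies opposite Mir136 and within the imprinted gene Rtl1 on chromosome 12. It had 189 counts, against 3292 for the complementary miR-136-5p and 71 for miR-136-3p. Log2 fold changes of these 3 members ran from 0.04 to 0.44, with overlapping groups. All 4 members opposite another hairpin, among them both strands of miR-3065, were positive with TMM (median 0.29, against 0.01 over all rows). However, 2 of the 4 were negative with upper quartile factors.

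Of the 35 members past the filter, the pair with the most negative log2 fold changes lie within exons of other genes. miR-1249-3p is on chromosome 15 from 84951545 to 84951566 (minus strand), in an exon of a retained-intron transcript of 5031439G07Rik. Its level was 12.3, 14.1 and 10.2 CPM in controls and 3.71, 6.44 and 4.78 in model libraries. The groups did not overlap. The log2 fold change was -1.28 (SE 0.36; adjusted p = 0.0923 in edgeR), the lowest p of any member, and over the alternatives it stayed negative, from -1.59 to -0.49. Its counts were 32, 29 and 17 in controls and 10, 21 and 16 in model libraries before scaling.

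miR-1247-5p, on chromosome 12 from 110278094 to 110278115 (minus strand), lies in Dio3os, a noncoding RNA of the imprinted Dlk1-Dio3 region. It was at 17.3, 18.99 and 13.8 CPM in controls and 5.19, 6.75 and 12.0 in model libraries, with no overlap. Its log2 fold change was -1.06 (SE 0.40; adjusted p = 0.162 in edgeR) and stayed negative over the alternatives, from -1.44 to -0.27. The other members in exons, miR-8112 in Krcc1, miR-8114 in the glutamine synthetase gene Glul and miR-1191a in BC024978, averaged 15.7, 5.52 and 15.1 CPM with overlapping groups and log2 fold changes of 0.15, -0.23 and -0.18.

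Among members elsewhere in introns, miR-1198-5p had nearly the same level in all model libraries. This miRNA lies on chromosome X from 7807142 to 7807163 (plus strand) in Gripap1, which encodes a protein of neuronal endosomes. It was at 194, 204 and 248 CPM in controls and 310, 307 and 310 in model libraries, all above the controls. The log2 fold change of 0.52 (SE 0.22; adjusted p = 0.197 in edgeR) was positive under every alternative run, from 0.24 to 1.33. Its 3p strand had 36 counts against 4208.

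miR-6933-5p, in the phosphatidylglycerophosphate synthase gene Pgs1 on chromosome 11, was at 5.01, 3.89 and 0.6 CPM in controls and 5.93, 6.44 and 5.38 in model libraries. Its groups did not overlap (log2 fold change 0.83, SE 0.59; adjusted p = 0.444 in edgeR), but control replicate 45 held a single count, and without it the log2 fold change was 0.37. miR-6538, in an intron of Rnf144a on chromosome 12, spread widely: 465, 864 and 712 CPM in controls and 881, 271 and 354 in model libraries. Both groups thus held high and low libraries (log2 fold change -0.44, SE 0.47). Its log2 fold change was -1.07 without model replicate 56, -0.67 without control replicate 43, -0.24 without control replicate 44, -0.21 without model replicate 59 and -0.11 without model replicate 57.

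The strands of miR-6546 lie in an intron of Fcgr3, the gene of an antibody receptor of myeloid cells. Log2 fold changes of miR-6546-3p and miR-6546-5p were 0.06 (SE 0.39) and 0.08 (SE 0.44) at 10.1 and 3.95 CPM, with overlapping groups. Of the 5 leukocyte markers, 1 passed the threshold, miR-223-3p (log2 fold change 2.75, edgeR adjusted p = 0.0077). Model libraries also lay above all controls for miR-142a-3p and miR-155-5p, while the groups overlapped for miR-142a-5p and for miR-150-5p, the most abundant of the 5 (log2 fold change -0.35). Any relation of the miR-6546 strands to these markers was not tested. miR-1964-3p, in the zinc finger gene Zfp84, ran from 5.01 to 13.8 CPM in controls and from 8.89 to 20.0 in model libraries. In Shank2, miR-3105-5p averaged 12.7 CPM. Of these 7 intronic members, 6 were positive with TMM (median 0.21) and 3 with upper quartile factors.

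Members for which GENCODE M21 lists no other gene on their strand were all negative with TMM, though 3 of the 4 were positive with the authors' totals. miR-1983, on chromosome 13 from 21896930 to 21896950 (minus strand), was at 107, 165 and 140 CPM in controls and 102, 135 and 128.2 in model libraries, which overlap (log2 fold change -0.18, SE 0.25). miR-3965, miR-3963 and miR-5099 averaged 11.6, 5.48 and 3.95 CPM with overlapping groups.

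**Figure D4:**
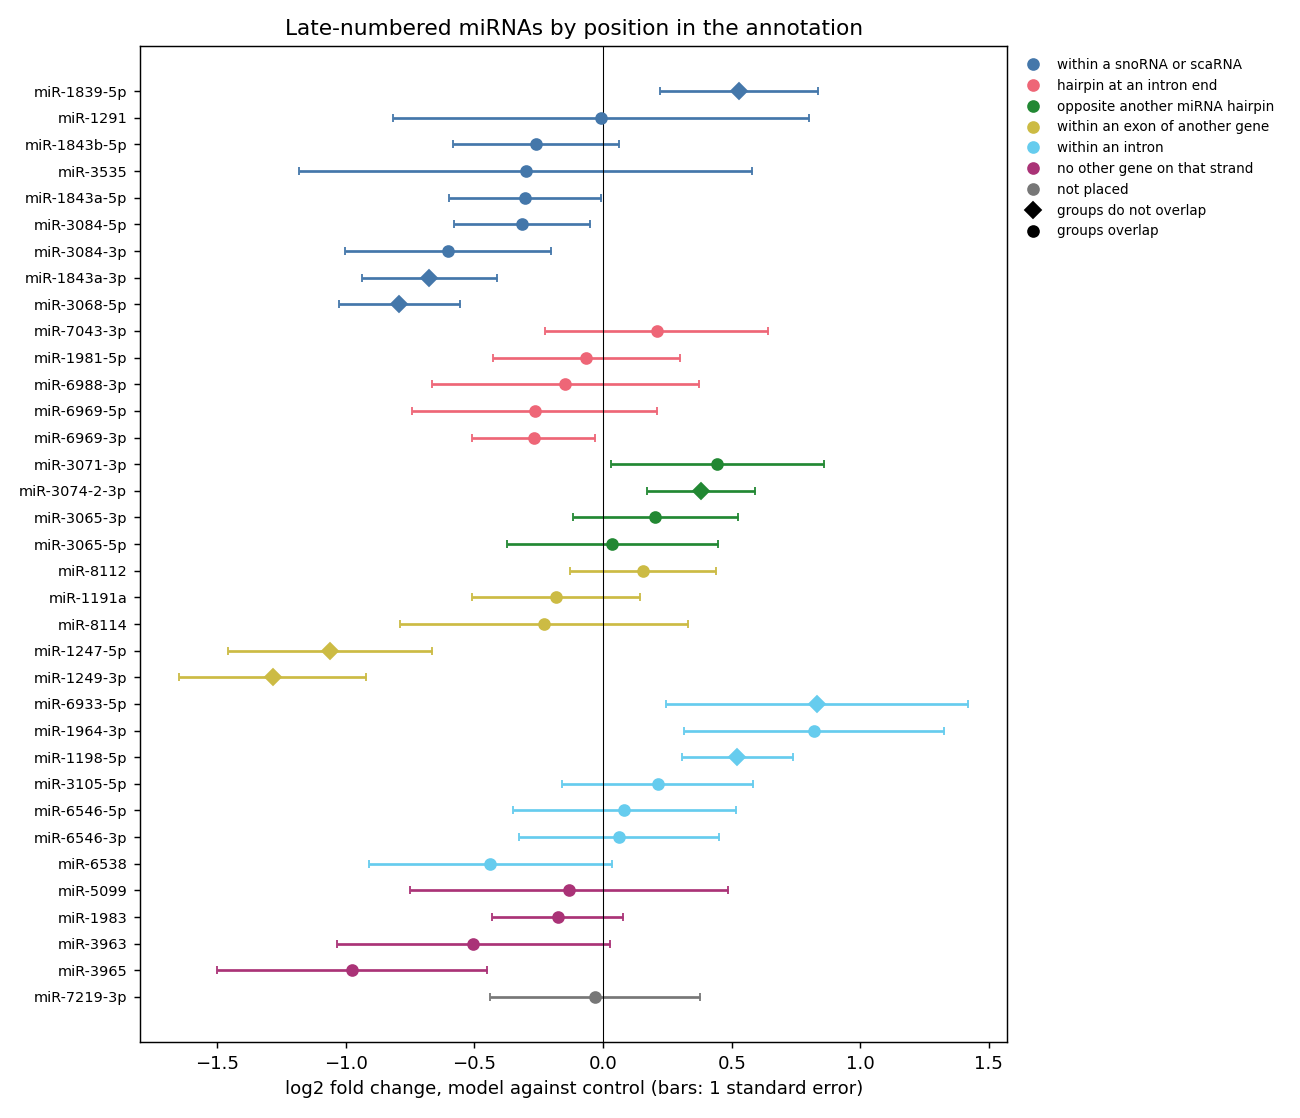
log2 fold change of model against control libraries for the 35 late-numbered miRNAs tested, coloured by position in the annotation, with bars of 1 standard error. Diamonds mark the 8 members whose groups do not overlap, and the lowest values are those of miR-1249-3p at -1.28 and miR-1247-5p at -1.06.

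The balance between the strands of a hairpin was compared as the log2 ratio of 5p to 3p counts, a measure that library scaling leaves untouched. Both strands averaged at least 10 counts in 125 hairpins, 6 of which held a member. None of the 6 passed (0.8% of all 125 did; limma with adjustment over 125), and at an unadjusted p under 0.05 there was 1, miR-3105, where 14.4% of hairpins had one. Its log2 ratio was 2.77, 0.415 and -0.322 in controls and 2.26, 3.46 and 2.85 in model libraries. The groups overlapped, because control replicate 43 lay among the model libraries (difference 1.91, SE 0.79, limma adjusted p = 0.318; 2.81 without that library, adjusted p = 0.0616). This rests on few reads: miR-3105-3p had 4, 17 and 24 counts in controls and 4, 3 and 8 in model libraries.

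The strands of miR-6969 showed how far single libraries can move a ratio. Its log2 ratio was -2.65, -4.87 and -2.19 in controls and -3.30, -2.99 and -2.86 in model libraries. Control replicate 44 lay below every other library, and the difference between groups was 0.19 with it and -0.63 without it (limma adjusted p = 0.955 and 0.499). For miR-1843a, whose strands were near equal, the log2 ratio averaged 0.09 ± 0.20 over controls and 0.46 ± 0.32 over the model (SD, n = 3). The differences of miR-3065, miR-3084 and miR-6546 lay between -0.14 and 0.22.

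**Figure D5:**
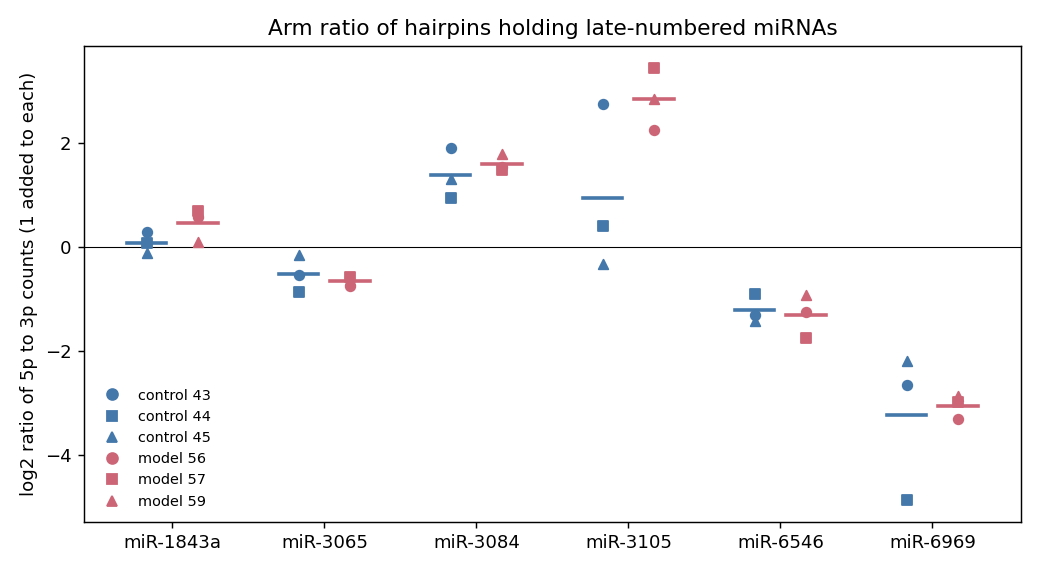
log2 ratio of 5p to 3p counts, with 1 count added to each strand, in each library for the 6 hairpins that hold late-numbered miRNAs, with controls in blue, model libraries in red and bars at the group means. The lowest point is miR-6969 in control replicate 44 at -4.87, and no hairpin passed the threshold.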

How the data were processed

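Small RNA of pancreas was measured in 3 control and 3 model libraries, grouped by sample title. Per the labels' protocols, RNA of miRNA size was cut from a gel and ligated to adapters with molecular identifiers. The authors deposited whole-number read counts per mature strand. They also deposited RPM values, and dividing counts by these recovers a library total (22055639 to 27876715). The sources used here do not say what that total holds or whether identifiers were used to collapse reads. Bowtie2 and GRCm38.p6 are named, with no role, per the submitters' processing notes. Uncollapsed duplicates would make counts seem more exact than they are. In 14 rows sequence and counts repeat another row, none of them a member.

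The whole count table went into edgeR 4.0.16 (R 4.3.3), with default filterByExpr (a minimum count of 10 and total of 15), TMM factors and the robust quasi-likelihood test in both directions. Benjamini-Hochberg adjustment ran over the 499 rows left, with a threshold of 0.05. Strand ratios were tested with limma 3.58.1. DESeq2 1.42.0, other scalings, filters, row sets and membership sums, and leaving out each library were alternatives. The edgeR and limma steps were tested on simulated data. Positions came from RefSeq and GENCODE M21, both on GRCm38. Position groups were assigned in the order snoRNA or scaRNA, intron end, opposite hairpin, exon, intron, no gene.

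Members and lists were chosen with earlier results of these data known. The rule for naming members took any that passed, the 10 with the highest mean level, those whose groups did not overlap (up to 6 in each direction), both strands of hairpins with both in the set, those at the limit of the sum, and any sharing a seed with another known row past it. Other members, the position groups and the opposite-strand rows were named after their values were seen, to account for all 36.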

Additional observations from a re-analysis of the deposited data

How the results depend on the processing

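The count of 0 members called held under 5 of 9 other scalings, filters, row sets or tools and without any 1 library. The other membership sums read the same fit and brought in no further tested row, so their 0 calls were fixed in advance. Upper quartile factors called 2 members lower (miR-1249-3p and miR-3068-5p), where 39 of all 499 rows were called lower. With no filter on low counts 2 were lower (miR-3068-5p and miR-3105-3p), where 35 of 1414 rows were. DESeq2 called 1 lower (miR-3068-5p), where 22 of 499 rows were. The authors' library totals called 4 higher (miR-1198-5p, miR-1839-5p, miR-1964-3p and miR-3074-2-3p), where 121 of 503 rows were. Those totals shift the median over all rows to 0.79 and that over the members to 0.66 (log2), so the members stay 0.14 below it. With total counts alone the medians were 0.30 and 0.18, with upper quartile factors -0.29 and -0.44. Leaving out 1 library kept the members' median between -0.29 and -0.07. The log2 ratio of the members' share, model over control, was 0.25, and 0.72 with the authors' totals, -0.049 for sums of TMM-scaled CPM (added after the data were seen), 0.027 without miR-1839-5p and 0.17 to 0.32 without 1 library. Log2 fold changes of 19 of 35 members turned sign with the authors' totals, of 11 with total counts alone, of 7 with upper quartile factors and of 14 without at least 1 of the libraries, none of them called in the fit with TMM. Of these 11, 5, 5 and 6 fall under the naming rule, and their values follow. With the authors' totals they became 0.50 for miR-6969-3p, 0.54 for miR-6969-5p, 0.015 for miR-3068-5p, 0.29 for miR-6538, 0.46 for miR-1843a-5p, 0.11 for miR-1843a-3p, 0.47 for miR-1843b-5p, 0.66 for miR-1983, 0.18 for miR-3084-3p, 0.44 for miR-3084-5p and 0.64 for miR-5099. With total counts alone they became 0.032 for miR-6969-3p, 0.021 for miR-6969-5p, 0.028 for miR-1843b-5p, 0.14 for miR-1983 and 0.18 for miR-5099. With upper quartile factors they became -0.093 for miR-3065-3p, -0.26 for miR-3065-5p, -0.098 for miR-3105-5p, -0.22 for miR-6546-3p and -0.21 for miR-6546-5p. Without 1 library, the ranges were -0.186 to 0.323 for miR-3065-5p, -0.079 to 0.497 for miR-3105-5p, -0.214 to 0.334 for miR-6546-3p, -0.153 to 0.277 for miR-6546-5p, -0.68 to 0.02 for miR-6969-5p and -0.479 to 0.83 for miR-5099. Strand ratios likewise ranged from -0.309 to 0.046 for miR-3065, -0.008 to 0.479 for miR-3084, -0.21 to 0.12 for miR-6546 and -0.629 to 0.707 for miR-6969. The causes were not tested beyond the scaling itself. No paired analysis was possible because the groups share no replicate number. Depth limits the members under 20 CPM, where single libraries hold between 1 and 67 counts.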
